A study of Homo sapiens with 6 samples.

Results

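Growth factor, receptor and signal inhibitor genes were examined for EGR1 and TET2 binding in leukaemia cells: CSF1R, FLT1, HBEGF, PDGFB, TGFB1 and SMAD7, 6 of 20037 protein-coding genes. They were chosen by their textbook link to monocytes or to EGR1 and by the TET2 peaks themselves, since each had to carry a TET2 peak in at least 1 treatment. Their TET2 peaks are therefore described here without a test. Every peak that overlapped a gene or the 50000 bp beyond either of its ends was taken from 4 deposited peak lists. The windows held 9 peaks in all, 8 of TET2 and 1 of EGR1. By the same rule 14.3% of all protein-coding genes held TET2 peaks in at least 1 treatment.

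The cells were THP-1, an established line of human monocytic leukaemia (AML), kept for 48 hours in DMSO (the solvent) or in OPA1, the submitters' name for the added agent. The study concerned opioid receptor signalling and DNA demethylation by TET enzymes in leukaemia. Chromatin immunoprecipitation with sequencing gave 4 libraries, EGR1 in DMSO, EGR1 in OPA1, TET2 in DMSO and TET2 in OPA1, with an unprecipitated input for each treatment. Each group was 1 library of 1 cell line, and no dose was stated in the sources used here. With 1 library per group no test compares the treatments, and each difference between them lacks a replicate check. The lists hold no expression values, so the monocytic label was not checked against marker genes.

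The ChIP libraries held 19779007 to 19900311 tags after removal of duplicates. Peaks held a median of 9 tags in both EGR1 lists and in TET2 DMSO and 12 in TET2 OPA1, and no listed peak had fewer than 8. A gene without a listed peak is thus not shown to lack the factor, because the lists do not give the tags of sites that were not called. Intervals below are exact Poisson 95% intervals of the tag number and cover counting error only.

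Growth factors act outside the cell on receptors that are mostly tyrosine kinases, or, for the TGF-beta family, serine/threonine kinases that signal through SMAD proteins. In monocytes and macrophages CSF1R carries the survival and differentiation signal of CSF1 and IL34. EGR1 is an immediate early zinc-finger factor that binds GC-rich DNA and takes part in monocytic differentiation, and promoters of several growth factor genes are textbook targets of it. TET2 oxidises 5-methylcytosine, the initial step of active demethylation, and its gene is a frequent site of mutation in myeloid leukaemia.

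The bases in front of the gene starts are shown for the genes whose starts lay nearest to a peak (HBEGF and the downstream start of CSF1R), for the upstream start of CSF1R, and for TGFB1, whose stretch held the most EGR-type cores. Each run is the 250 bases before a listed start, 5′ to 3′ on the gene's minus strand, from RefSeq (GRCh38.p14). Capitals mark the 7-base cores GTGGGCG and GGGGGCG, searched on both strands, where they read CGCCCAC and CGCCCCC on the other strand. No 2 of the marked cores overlapped. The stretches were chr5:150113366-150113615 (CSF1R, upstream start), chr5:150086555-150086804 (CSF1R, downstream start), chr5:140346604-140346853 (HBEGF) and chr19:41353923-41354172 (TGFB1).
CSF1R, upstream start: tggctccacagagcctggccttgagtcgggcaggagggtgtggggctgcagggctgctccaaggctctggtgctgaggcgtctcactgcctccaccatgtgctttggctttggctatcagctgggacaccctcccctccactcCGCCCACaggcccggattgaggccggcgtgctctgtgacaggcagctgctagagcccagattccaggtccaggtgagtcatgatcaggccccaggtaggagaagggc
CSF1R, downstream start: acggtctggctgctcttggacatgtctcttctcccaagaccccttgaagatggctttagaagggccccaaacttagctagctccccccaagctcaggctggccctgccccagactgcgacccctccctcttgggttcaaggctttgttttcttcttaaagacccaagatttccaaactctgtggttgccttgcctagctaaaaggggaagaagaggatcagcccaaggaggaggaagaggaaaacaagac
HBEGF: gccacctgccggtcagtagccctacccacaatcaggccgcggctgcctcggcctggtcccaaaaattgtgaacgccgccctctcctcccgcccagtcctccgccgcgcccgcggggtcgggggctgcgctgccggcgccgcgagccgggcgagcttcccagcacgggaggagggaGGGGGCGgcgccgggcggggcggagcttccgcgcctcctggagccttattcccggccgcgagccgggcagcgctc
TGFB1: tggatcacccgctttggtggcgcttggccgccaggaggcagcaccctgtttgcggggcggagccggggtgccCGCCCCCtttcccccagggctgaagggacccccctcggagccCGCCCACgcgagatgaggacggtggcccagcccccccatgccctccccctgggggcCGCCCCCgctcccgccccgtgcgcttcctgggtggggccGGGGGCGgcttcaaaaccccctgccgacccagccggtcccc

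Such stretches were matched for 5 of the 6 genes, all but PDGFB, with 8 listed starts in all. TGFB1 held 4 cores, beginning 178, 136, 80 and 41 bases before the start. HBEGF held 1 core at 75 bases, FLT1 1 at 24, the upstream start of CSF1R 1 at 107 and the outermost start of SMAD7 1 at 223. The downstream start of CSF1R and the other SMAD7 starts held none. Of all 35116 stretches of this length in the table, 26.9% held at least 1 of the cores, 8.53% GTGGGCG and 21.6% GGGGGCG. HBEGF held 33 CpG dinucleotides, FLT1 25, TGFB1 21 and the outermost SMAD7 start 13, against a median of 11 over all stretches. The CSF1R stretches were below that median, with 6 at the upstream and 2 at the downstream start, and the innermost SMAD7 start also held 2. Of all stretches, 58.9% held more CpG than the upstream CSF1R start and 77.1% more than the downstream one. None of the 4 lists had a peak in any of these 8 stretches. The share of all stretches with a peak is not given here, so nothing is read from that absence. The nearest peak to any of the 8 was the TET2 OPA1 peak in HBEGF, 4027 bp away. These matches are descriptions of sequence and not binding sites.

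The rule for choosing the genes asked for no EGR1 peak, but the genes were chosen with earlier results of these data known. Peaks of EGR1 and TET2 can also share a site, as at CSF1R, so choosing by TET2 may raise the EGR1 count. The EGR1 counts are therefore described without a test. An EGR1 peak lay in or near 1 of the 6 genes in DMSO (16.7%), CSF1R, where 2.51% of all protein-coding genes had one. In OPA1 none of the 6 had an EGR1 peak, against 2.92% of all genes. With 6 genes, 1 is the smallest count above 0, so neither count separates the genes from the rest. For the 5 genes without an EGR1 peak in DMSO, the nearest lay between 95550 bp (TGFB1) and 7195901 bp (SMAD7) away. In OPA1 the nearest EGR1 peak lay between 745240 bp (FLT1) and 6242021 bp (CSF1R) away. The EGR1 lists therefore placed no peak at HBEGF, PDGFB, TGFB1, FLT1 or SMAD7 in either treatment.

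TET2 peaks lay in or near 4 of the 6 genes in each treatment. The shares among all protein-coding genes were 5.76% for the DMSO list and 10.7% for the OPA1 list. The rule asked for a TET2 peak in at least 1 treatment, which raises the counts at the 6 genes, and nothing is read from them. In DMSO the genes were CSF1R, HBEGF, PDGFB and TGFB1. In OPA1 they were FLT1, HBEGF, PDGFB and SMAD7. Each gene had a single TET2 peak per list. Of these peaks, 7 lay inside the gene and the TGFB1 peak lay 2592 bp beyond it. They held 8 to 18 tags over 158 to 296 bp, or 4.37 to 7.20 tags per 100 bp. The medians over the whole TET2 lists were 5 tags per 100 bp in DMSO and 4.72 in OPA1.

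**Figure D1:**
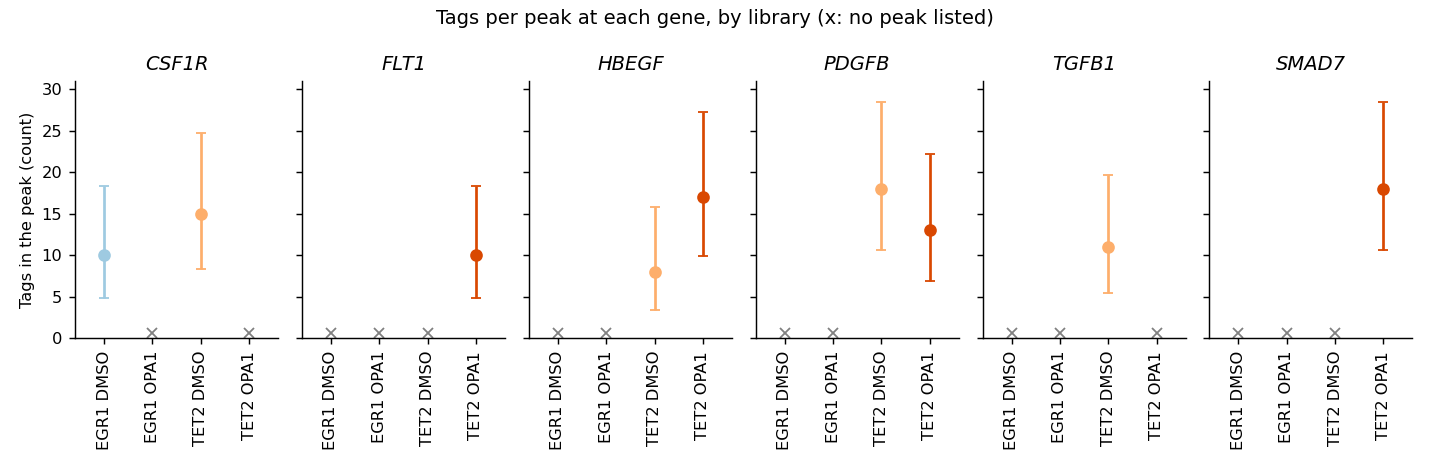
Tags in the peak at each of the 6 genes (y axis, count) in the 4 libraries (x axis). Points are the single library's tags, bars exact Poisson 95% intervals, and grey crosses mark libraries with no listed peak, not a measured 0; CSF1R alone has an EGR1 peak, and only HBEGF and PDGFB have TET2 peaks in both treatments.

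CSF1R, the receptor tyrosine kinase for CSF1, spans chromosome 5, 150053295 to 150113365, on the minus strand. In DMSO it carried a TET2 peak of 15 tags (8.40 to 24.7) at 150081853 to 150082148. In the same treatment it carried an EGR1 peak of 10 tags (4.80 to 18.4) at 150081942 to 150082124, which lay whole inside the TET2 peak. Neither factor had a listed peak in OPA1, where the nearest TET2 peak was 501335 bp away in ARHGEF37 with 9 tags. Peaks of both factors were thus listed at the gene in DMSO and of neither in OPA1. Over the whole lists, 2 pairs of EGR1 peaks overlapped between the treatments, among 513 peaks in DMSO and 515 in OPA1. For TET2, 171 pairs overlapped, among 891 peaks in DMSO and 1687 in OPA1. Most peaks of either factor were therefore listed in a single treatment.

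The CSF1R summits lay at 150081995 for TET2 and 150082001 for EGR1, 6 bp apart. Over the 8 EGR1 and TET2 peaks that overlapped in DMSO the median summit distance was 9 bp. The TET2 fold over local background, a value of the authors' caller, was 25.4, rank 4 of 891, with a score of 98.9 and a peak false discovery rate of 0%. By tags the TET2 peak ranked 91 and by score 26. By tags the EGR1 peak ranked 99 of 513. The EGR1 fold was 16.6, rank 10 of 513, with a score of 74.5 that ranked 9. The EGR1 peak's false discovery rate was 44.4% in spite of that rank. This rate times the rank gives 4 peaks, the number of input peaks of at least that score as this caller defines the rate. Both peaks were called against the same DMSO input library.

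CSF1R has more than 1 start. As background, transcripts of macrophages begin at a downstream promoter, and a conserved enhancer in the intron behind it, known as FIRE, drives expression in the macrophage lineage. The TET2 summit lay 4559 bp and the EGR1 summit 4553 bp downstream of the listed start at 150086554. From the outer start at 150113365 the distances were 31370 and 31364 bp. Whether the peaks lie on FIRE was not tested, since exons and enhancer positions were not used here. The neighbouring receptor gene PDGFRB lay 31691 bp from the TET2 peak, and HMGXB3 28867 bp from its summit, so the window rule also counts this site for those genes.

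Overlapping EGR1 and TET2 peaks in DMSO lay in or within 50000 bp of 0.0549% of protein-coding genes, 11 of 20037, and of 1 of the 6 genes. The 6 were chosen for TET2 peaks, whereas only 1155 of the 20037 genes had a TET2 peak in DMSO. That choice raises the share among the 6, so these shares are not compared. The 11 were CSF1R, HMGXB3 and PDGFRB, which share the CSF1R site, and WDR70, MAP2K5, LOC124903570, SKOR1, MYBL2, GTSF1L, PGK1 and TAF9B. The gene closest to CSF1R in its highest tags per list over the 4 libraries was DDX6, an RNA helicase gene, at a summed difference of 1 tag. DDX6 had 10 tags for EGR1 and 14 for TET2 in DMSO and no peak in OPA1, but it is not among the 11, so its peaks did not overlap.

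**Figure D2:**
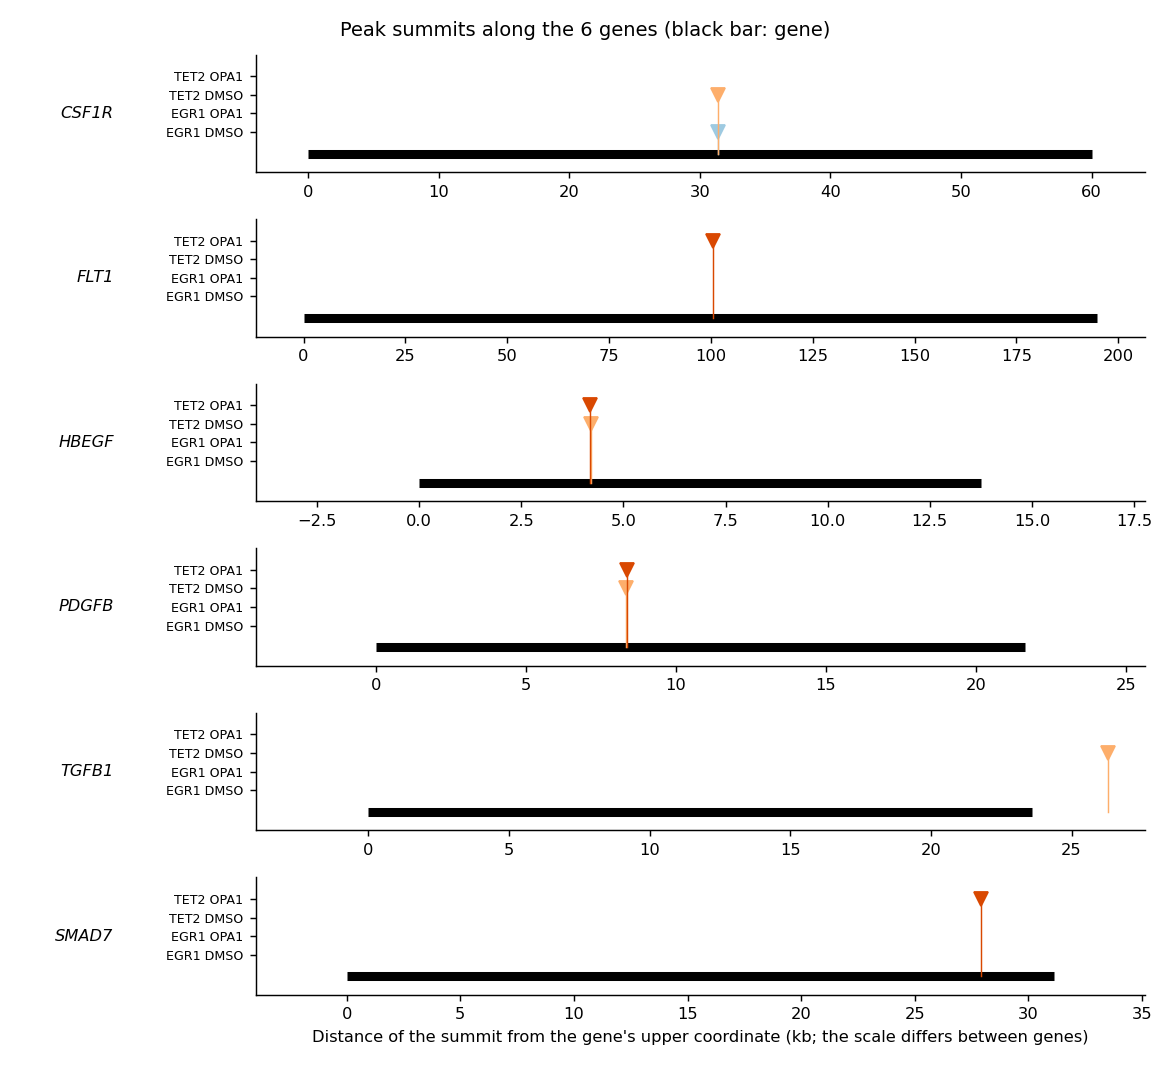
Position of each peak summit along the 6 genes, as distance in kb from the gene's upper coordinate (x axis, scaled per gene), with 1 row per library (y axis). The black bar is the gene; summits of different libraries in CSF1R, HBEGF and PDGFB stand on each other, at most 19 bp apart, and the TGFB1 summit lies beyond the gene.

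FLT1 encodes a receptor for VEGF ligands that is found on endothelial cells and on monocytes. It is the longest of the 6 genes, with 194783 bp on chromosome 13, 28300346 to 28495128, minus strand. Its TET2 peak, at 28394526 to 28394754, held 10 tags (4.80 to 18.4) in OPA1. In DMSO no TET2 peak was listed nearer than 2144322 bp. The summit at 28394630 was 100498 bp downstream of the start, near the middle of the gene at 51.6% of its length. This was an average peak of its list, with a fold of 11.3 (rank 821 of 1687), rank 1014 by tags and a false discovery rate of 2.50%. In all, 211 other protein-coding genes had the same highest tags as FLT1 in the 4 lists.

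HBEGF encodes a membrane-anchored ligand of the EGF receptor that is shed by proteases. It spans chromosome 5, 140332843 to 140346603, minus strand. In DMSO its TET2 peak lay at 140342340 to 140342497 and held 8 tags (3.45 to 15.8), the lowest number of any listed peak. In OPA1 the peak lay at 140342342 to 140342577 and held 17 tags (9.90 to 27.2). The OPA1 peak was the higher by tags, but the counting intervals overlapped.

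The HBEGF summits, at 140342397 and 140342416, were 19 bp apart and lay 4206 and 4187 bp downstream of the start. The peak starts differed by 2 bp and the ends by 80 bp, with lengths of 158 and 236 bp. The density was 5.06 tags per 100 bp in DMSO and 7.20 in OPA1. Within its own list the DMSO peak had a fold of 14.9 (rank 168 of 891) and the OPA1 peak a fold of 12.6 (rank 579 of 1687). The false discovery rate was 6.56% in DMSO and 1.98% in OPA1.

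PDGFB encodes the B chain of platelet-derived growth factor and spans chromosome 22, 39223359 to 39244982. Its TET2 peak held 18 tags (10.7 to 28.4) in DMSO at 39236546 to 39236803. In OPA1 it held 13 tags (6.92 to 22.2) at 39236548 to 39236788. Here DMSO was the higher, and the intervals again overlapped. The summits, at 39236636 and 39236622, were 14 bp apart and lay 8346 and 8360 bp from the upper end of the gene. Within its own list the DMSO peak had a fold of 13.2 (rank 290 of 891) and the OPA1 peak a fold of 10.3 (rank 1082 of 1687). In the same order the density was 6.98 and 5.39 tags per 100 bp, and the false discovery rate 0% and 4.42%.

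HBEGF and PDGFB were the only 2 of the 6 genes with TET2 peaks that overlapped between the treatments. Overlapping pairs were counted for 260 of the 20037 genes (1.30%). Only 2872 of the 20037 met the rule by which the 6 were chosen. The rule raises the share among the 6, so nothing is read from the difference in shares. Over the 171 overlapping TET2 pairs in the lists the OPA1 peak held a median of 1.4 times the tags of the DMSO peak. HBEGF, at 2.13 times, ranked 21 of the 171 from the highest. Its DMSO peak held 8 tags, the lowest number of any listed peak, and a pair that starts there cannot have fewer tags in OPA1. Listed TET2 peaks were also longer in OPA1, with a median of 251 bp against 188 bp in DMSO. PDGFB, at 0.722 times, ranked 3 of the 171 from the lowest, among 12 pairs with fewer tags in OPA1. PDGFB was thus below and HBEGF above the median of the shared peaks, and each of the peaks behind these ratios held at most 18 tags. Their summit distances of 19 and 14 bp compare with a median of 22 bp over the 171 pairs. By highest tags per list, PDGFB was closest to INPP5D, a lipid phosphatase gene of blood cells, with 17 and 15 TET2 tags, and SLC12A8, with 17 and 11.

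**Figure D3:**
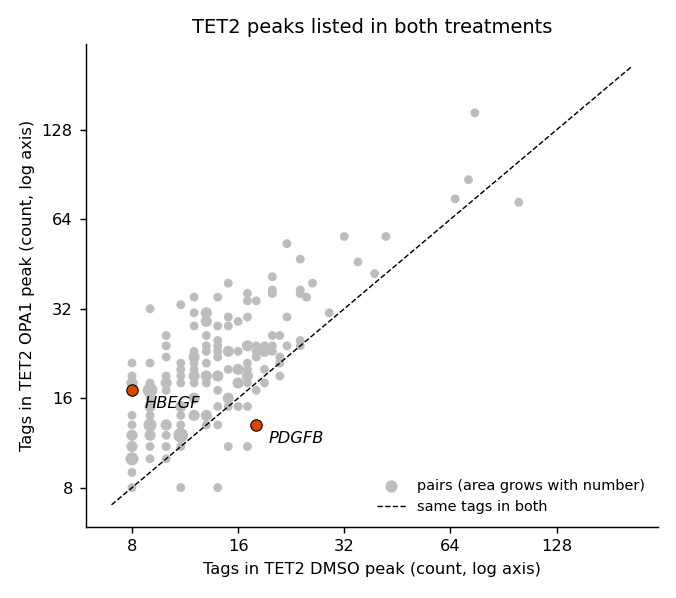
Tags of the 171 TET2 peak pairs listed in both treatments, in DMSO (x axis, count, log axis) and OPA1 (y axis, count, log axis). Grey circles are all pairs and the dashed line marks equal tags; HBEGF (8 and 17 tags) lies above the line and PDGFB (18 and 13) below it.

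TGFB1 encodes transforming growth factor beta 1, a cytokine that restrains growth and immune activation in many cell types, and spans chromosome 19, 41330323 to 41353922, minus strand. Its TET2 peak, at 41327491 to 41327731, held 11 tags (5.49 to 19.7) in DMSO. In OPA1 the nearest TET2 peak lay 208922 bp away, in CYP2F1, with 8 tags. The TGFB1 peak had a fold of 17.8 (rank 33 of 891), rank 213 by tags and a false discovery rate of 2.86%. It is the only one of the 8 TET2 peaks outside a gene. Its summit at 41327636 lay 2687 bp beyond the downstream end of TGFB1 and 2763 bp from CCDC97, so it is hardly nearer to the one gene than to the other. The start of TGFB1, with the 4 cores shown above, was 26286 bp from the summit. In all, 40 other genes matched the highest tags of TGFB1 in the 4 lists.

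SMAD7 encodes an inhibitory SMAD protein that blocks TGF-beta receptors and is itself induced by TGF-beta. It spans chromosome 18, 48919853 to 48950965, minus strand. Its TET2 peak, at 48922914 to 48923201, held 18 tags (10.7 to 28.4) in OPA1. In DMSO no TET2 peak was listed nearer than 525652 bp, where one held 11 tags. Of the 4 OPA1 peaks at these genes the SMAD7 peak had the highest score, 112, and the highest fold, 23.3 (rank 23 of 1687). Its false discovery rate was 0%, and it ranked 290 by tags and 86 by score. The summit at 48923072 lay 27893, 26261 and 19735 bp downstream of the 3 listed starts and 3219 bp inside the downstream end of the gene. The TGFB1 summit in DMSO lay 2687 bp outside the downstream end of TGFB1, whereas the SMAD7 summit in OPA1 lay within SMAD7. In all, 23 other genes matched the highest tags of SMAD7.

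**Figure D4:**
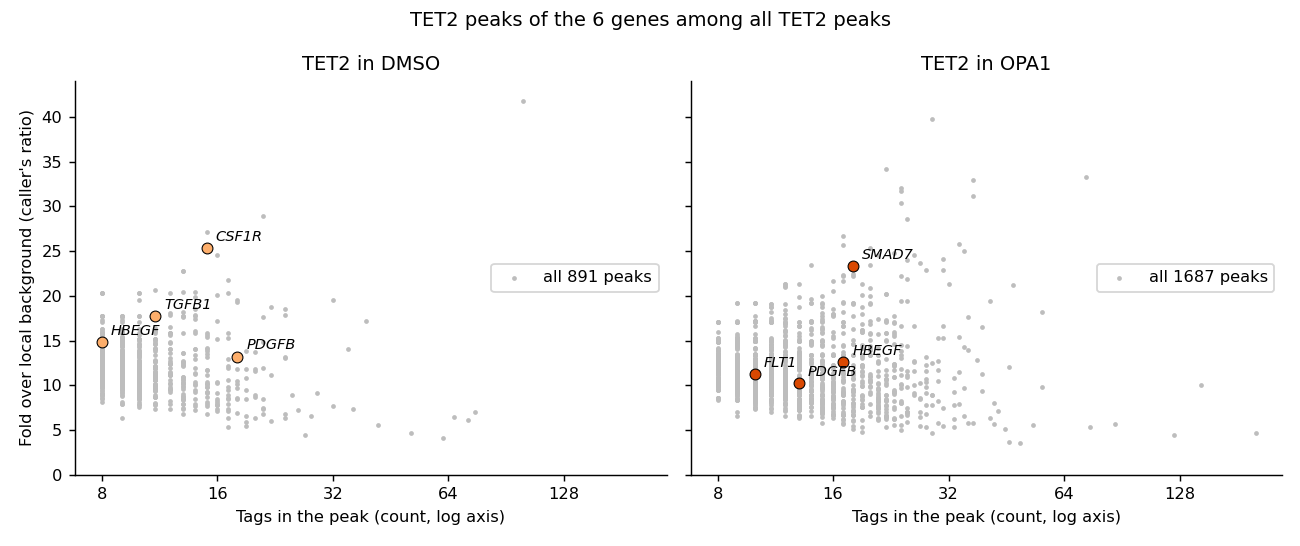
Fold over local background (y axis, the caller's ratio) against tags per peak (x axis, count, log axis) for every TET2 peak in DMSO (left, 891 peaks) and OPA1 (right, 1687 peaks). Coloured points are the peaks of the 6 genes; CSF1R (25.4) and SMAD7 (23.3) stand high in fold, and FLT1, HBEGF and PDGFB in OPA1 lie within the bulk of the list.

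By role, the receptors split between the treatments, with CSF1R listed in DMSO and FLT1 in OPA1. The ligands were all listed in DMSO, and HBEGF and PDGFB also in OPA1. The TGF-beta pair split as well, with the ligand TGFB1 in DMSO and the inhibitor SMAD7 in OPA1. The TGFB1 peak lay outside the gene, its summit 2687 bp from TGFB1 and 2763 bp from CCDC97. These are the TET2 peaks by which the genes were chosen, so no pattern by role is read from them. Over the whole TET2 lists 171 pairs overlapped between the treatments, among 891 peaks in DMSO and 1687 in OPA1. A listing in a single treatment was thus the usual case for a TET2 peak. At each of the 4 genes listed in a single treatment the tags in the other treatment were not analysed here, so no size is given for these differences.

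A narrower window of 5000 bp would have held the same number of peaks at the 6 genes in each list. The farthest peak inside it was the TGFB1 peak at 2592 bp. The nearest peak outside it was a TET2 OPA1 peak of 9 tags, 55364 bp from PDGFB. A further TET2 OPA1 peak, of 16 tags, lay 80972 bp from HBEGF, inside PFDN1, and an EGR1 DMSO peak of 9 tags lay 95550 bp from TGFB1.

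The other genes of these pathways were described from 5 lists, which with the 6 genes held 72 genes. Of the 66 others, 9 (13.6%) had a TET2 peak in or within 50000 bp in DMSO and 10 (15.2%) in OPA1. For EGR1 the counts were 1 (1.52%) in DMSO and 3 (4.55%) in OPA1. The shares of all protein-coding genes by the same rule were 5.76%, 10.7%, 2.51% and 2.92% in that order. The EGR1 count in DMSO is PDGFRB, through the CSF1R site. Through the same site, PDGFRB is also among the 9 genes counted for TET2 in DMSO. The lists were chosen with earlier results of these data known, so the shares are described without a test. These counts depend on the peak threshold. With the 6 genes included, TET2 peaks were counted for 13 pathway genes with DMSO and for 14 with OPA1. In each list 4 of these were among the 6, which were chosen for such peaks. At a false discovery rate of at most 5% the TET2 counts became 5 in DMSO and 14 in OPA1, and the EGR1 counts 0 in both. Of these TET2 genes, 3 in DMSO and 4 in OPA1 were among the 6. The others in DMSO were PDGFRB, through the CSF1R site, and EGR3. Over the whole lists, 172 of 891 TET2 peaks in DMSO and 1356 of 1687 in OPA1 met this limit. For EGR1 it was met by 2 of 513 peaks in DMSO and 4 of 515 in OPA1. The limit falls at different scores in the TET2 lists: PDGFB in OPA1 passed it at a score of 53.2, and HBEGF in DMSO missed it at 59.6. With 5000 bp in place of 50000 bp the TET2 counts were 5 and 9, of which 4 in each list were among the 6.

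**Figure D5:**
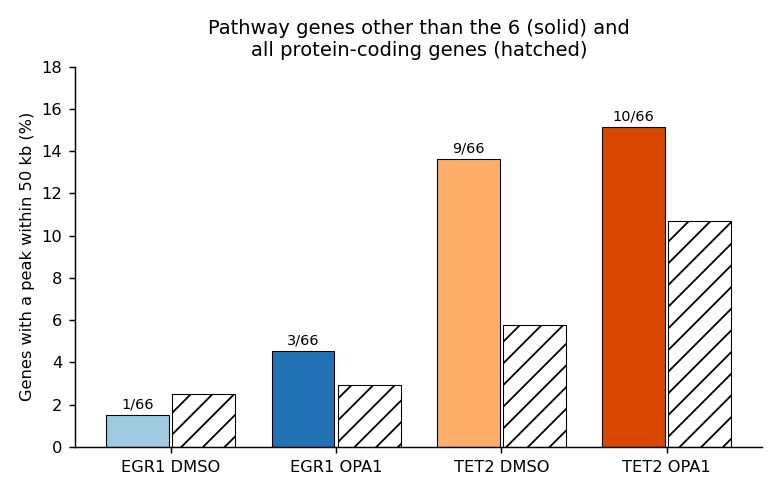
Share of genes with a peak in the gene or within 50 kb (y axis, percent) in each library (x axis). Solid bars are the 66 pathway genes other than the 6, with the number of genes above each bar, and hatched bars all 20037 protein-coding genes. The solid bar is the higher in all but EGR1 DMSO, but the lists were chosen with earlier results of these data known. PDGFRB counts in the solid bars of EGR1 DMSO and TET2 DMSO through the CSF1R site.

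Among CSF1 and class III receptor kinase genes, a TET2 peak was counted for 4 of 13 others with DMSO and for 2 of 13 with OPA1. KIT, the stem cell factor receptor, had a peak of 8 tags 5670 bp away in DMSO. KITLG, its ligand, had 8 tags at 45706 bp in DMSO and 10 tags inside the gene in OPA1, at different sites. FLT3, a receptor often mutated in myeloid leukaemia, had 9 tags at 30546 bp in OPA1, nearer to PAN3. CSF2 had 10 tags at 38488 bp in DMSO, and PDGFRB counts through CSF1R. CSF3 had the list's EGR1 OPA1 peak, 13 tags at 34688 bp, but 55 bp from PSMD3. Apart from the KITLG peak in OPA1, these peaks lay outside the gene they were counted for.

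Of 12 other PDGF and VEGF genes, none had a TET2 peak in DMSO and 2 had one in OPA1. They were VEGFB, with 11 tags at 19260 bp, inside FERMT3, and PDGFD, with 11 tags at 42124 bp. No EGR1 peak fell in this list in either treatment. The list holds no PDGF receptor: PDGFRA and PDGFRB were placed with the class III receptor kinases, where PDGFRB counts with the DMSO peaks of both factors at CSF1R.

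Of 13 other EGF-type genes, only EGF had peaks, and it had them in 3 of the 4 lists. TET2 held 9 tags in DMSO (110034045 to 110034200 on chromosome 4) and 15 in OPA1 (110033985 to 110034224). EGR1 held 11 tags in OPA1 at 110033986 to 110034208, inside the TET2 OPA1 peak. The EGR1 peak had a false discovery rate of 21.8%. The site lay 20219 to 20279 bp from EGF and nearer to ELOVL6, at 11622 bp for the TET2 OPA1 peak.

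Of 22 other TGF-beta genes, TET2 peaks were counted for 3 with DMSO and for 4 with OPA1, and EGR1 peaks for none. In OPA1 peaks lay inside TGFBR2 (16 tags) and TGFBR3 (19 tags), which encode TGF-beta receptors, and inside LTBP1 (8 tags), whose protein binds latent TGF-beta in the matrix. SMAD3, a transducer of the signal, had 10 tags 1304 bp away and 12 tags at 47712 bp, inside AAGAB, in OPA1. In DMSO it had 11 tags at 40875 bp, at another site. SMAD2, also a transducer, had 8 tags inside the gene and TGFB2 13 tags at 15346 bp, both in DMSO. The OPA1 list is also the longer, with 1687 TET2 peaks against 891 in DMSO.

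Among the 6 genes of the EGR family and its co-repressors, only EGR3 had peaks. At 1 site the TET2 tags were 32 (21.9 to 45.2) with DMSO and 56 (42.3 to 72.7) with OPA1, 11477 and 11378 bp from the gene, nearer to PEBP4. A further TET2 site inside PEBP4 held 25 and 35 tags. By tags these were the strongest TET2 sites of any gene in the lists, above each of the 6 genes. The EGR1 OPA1 list had 17 tags across the upper end of EGR3, with a false discovery rate of 20.9%.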

How the data were processed

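Peak lists of 4 ChIP libraries (EGR1 and TET2, each in DMSO and OPA1) were used. Per the file headers, peaks were called with MACS 1.4.2 separately in each library, with the matching input as control, at a p-value cutoff of 1e-05, with 1 tag kept per position and the larger library scaled to the smaller. Bowtie2 2.2.6, HOMER and GRCh38 (hg38) are named in the submitters' processing notes, without their roles. The deposited tags are raw counts per peak. The deposited score is minus 10 times log10 of the p-value, the deposited fold is the ratio to local background, and the deposited false discovery rate is in percent. These caller values describe peaks within their own list only. The inputs entered only through the calls.

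Genes came from a RefSeq table (GRCh38.p14, 20037 protein-coding genes on assembled chromosomes), and strand, starts and sequence from a RefSeq promoter table. Exons, introns and sequence under the peaks were not analysed here. Coordinates are 1-based, and a summit is the peak start plus the deposited offset less 1. Distances of a peak run from its nearer edge, and distances of a summit from the summit. Peaks overlapped when they shared at least 1 bp. The functions were tested on simulated data. Pandas 2.3.3 and scipy 1.17.1 in Python 3.11.15 were used.

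The 6 genes and the 5 pathway lists were chosen with earlier results of these data known. All 6 genes were described. From each list up to 6 genes per factor, those with the highest folds, could be named, with the gene that holds or is nearest to a peak and up to 3 genes closest to each of the 6 by tags. Alternatives varied the window, the peak threshold and the overlap.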

Additional observations from a re-analysis of the deposited data

How the results depend on the processing

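Of 72 alternative values for counts of peaks, genes and peak pairs, 55 stayed within 1.5 times the value given and 17 did not. Several of the 55 were fixed beforehand. Where the value given was 0, as for EGR1 OPA1 peaks at the 6 genes, a stricter limit leaves it at 0. At the 6 genes every TET2 peak had a fold of at least 10.2 and the EGR1 peak 16.6, so a limit of 8 removed none. The number 55 is thus no measure of robustness. With a window of 5000 bp the peaks and genes counted among the 6 were as many as before in every list, while the pathway genes with a peak, the 6 included, went from 2 to 1 (EGR1 DMSO), 3 to 1 (EGR1 OPA1), 13 to 5 (TET2 DMSO) and 14 to 9 (TET2 OPA1). With 100000 bp the EGR1 DMSO peaks at the 6 genes and the genes with one became 2 each, and the pathway genes with an EGR1 peak 5 in DMSO and 6 in OPA1. At a 5% limit on the false discovery rate, 0 EGR1 peaks were left at the 6 genes or any pathway gene in either treatment. That limit kept 2 of 513 EGR1 peaks in DMSO and 4 of 515 in OPA1. With the 6 included, 5 pathway genes then had a TET2 DMSO peak, while the TET2 OPA1 count of 14 was as before. Over the whole TET2 lists it kept 172 of 891 peaks in DMSO and 1356 of 1687 in OPA1. With at least 12 tags 0 EGR1 DMSO peaks and 2 TET2 DMSO peaks, at 2 genes, were left at the 6 genes. A fold of at least 8, the summit in place of the peak, an overlap of 50% of the shorter peak and summits within 200 bp moved no count by over 1.5 times. The changes follow from fewer or more peaks entering. No paired analysis was possible because each group had 1 library. Depth limits single peaks of 8 to 18 tags, whose intervals overlapped between treatments at HBEGF and PDGFB.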
